A study of Homo sapiens with 14 samples.

Results

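FL early flasks are 4 cultures of MOLM14, a cell line from human acute myeloid leukaemia whose receptor kinase FLT3 carries an internal tandem duplication (FLT3-ITD), that the labels class as early resistant to gilteritinib and that were kept in FL, the ligand of FLT3. They were set against 3 acute libraries, parental MOLM14 given gilteritinib for 48 hours. These 7 libraries of the 14 in the series were chosen by their labels. FL early cultures carried FL at 10 ng/mL with gilteritinib at 100 nM for 48 hours, and the acute libraries had the same inhibitor dose and time. Of the acute libraries, 1 had no ligand, 1 had FGF2 at 10 ng/mL and 1 had FL at 10 ng/mL, so no ligand state of the acute group has a replicate. The series also holds 4 early resistant flasks kept in FGF2 at 10 ng/mL, with the same gilteritinib treatment, and 3 parental libraries with neither inhibitor nor ligand. All groups come from 1 cell line. The labels number the FL flasks 9 to 12, where flasks 10, 11 and 12 are replicates 1, 2 and 3 and flask 9 is replicate 4, and the FGF2 flasks 5 to 8. They do not say whether they were derived independently, so the p-values reflect the spread among these libraries, which may be technical.

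FLT3 is a receptor tyrosine kinase of early myeloid cells, and the tandem duplication keeps its kinase active without ligand. It feeds the RAS and ERK, the PI3K and AKT, and the STAT5 pathways, which drive the cell cycle, growth and survival of leukaemic blasts. Gilteritinib blocks the FLT3 kinase and the related receptor AXL. FL and FGF2 are secreted in the bone marrow, and both have been described as protecting FLT3-mutant cells from inhibitors.

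The FL early libraries held 27295941 to 32017149 counts and the acute libraries 25723575 to 30370423. Values are given as CPM, the library-scaled count unit of edgeR. In bulk RNA fewer cells of a type and less RNA per cell cannot be told apart. CD33, a myeloid surface marker, stood at 63.8 to 84.4 CPM in FL early flasks and 67.1 to 73.7 CPM in acute libraries. CD14, a monocyte marker, was under 1 CPM in all 7, and CD34, a stem cell marker, was too low to be tested. Of 13 tested markers of the leukaemia line, CD33 among them, 9 were lower in FL early flasks and 1 higher at an adjusted p under 0.05. The lower share was 69.2%, against 29.7% of all genes, and the median log2 fold change was −0.53. These markers summed to 1915 to 2177 CPM in FL early flasks and 2400 to 2705 CPM in acute libraries. The ribosomal protein list held 7.0% to 8.14% of counts in FL early flasks and 10.4% to 12.5% in acute libraries.

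By correlation across the genes tested, FL early replicate 4 was nearer to the FGF2 early flasks than to the other FL early flasks. Its log2 CPM across genes correlated at 0.975 to 0.979 with the 4 FGF2 early flasks and at 0.969 to 0.971 with the other 3 FL early flasks. Replicate 1 correlated with the other FL early flasks at 0.969 to 0.971 as well, and replicates 2 and 3 with each other at 0.985. To place it without its own values, protein-coding genes outside the Y chromosome were taken that separated FL early replicates 1 to 3 from the FGF2 early flasks by at least 4-fold. There were 44 such genes. In replicate 4, 42 of the 44 lay past the midpoint towards the FGF2 early level on the linear CPM scale, and the median gene lay 80.4% of the way, with quartiles of 73.7% and 85.1%. The other 2 were IGFBP2, a binder of insulin-like growth factors, at 12%, and CHPT1, a choline phosphotransferase, at 37.9%. SLC22A23, a transporter gene, read 70.4 CPM in replicate 4, 6.39, 4.70 and 5.42 CPM in replicates 1 to 3 and 78.1 to 96.0 CPM in FGF2 early flasks. PLXNC1, a semaphorin receptor, read 114 CPM in replicate 4, 25.8, 13.1 and 16.5 CPM in replicates 1 to 3 and 112 to 128 CPM in FGF2 early flasks. ZNF618, a zinc finger gene, was low where those were high, at 5.58 CPM in replicate 4, 45.5, 38.0 and 39.3 CPM in replicates 1 to 3 and 6.22 to 8.39 CPM in FGF2 early flasks. These genes were named after their values were seen. When another flask was held out in the same way, replicate 1 lay past the midpoint for 9 of 12 genes, replicate 2 for 0 of 5 and replicate 3 for 0 of 4. Those smaller sets had to separate replicate 4 from the FGF2 early flasks too, so they cannot be set directly against the 42 of 44. MPO and CTSG, granule genes described below, did not follow this order. MPO read 702 CPM in replicate 4, 172, 513 and 580.1 CPM in replicates 1 to 3 and 32.3 to 46.1 CPM in FGF2 early flasks. CTSG read 581 CPM in replicate 4, 315, 359 and 420 CPM in replicates 1 to 3 and 250 to 323 CPM in FGF2 early flasks. The cause of the position of replicate 4 was not tested, and the main counts are given with and without it.

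**Figure D1:**
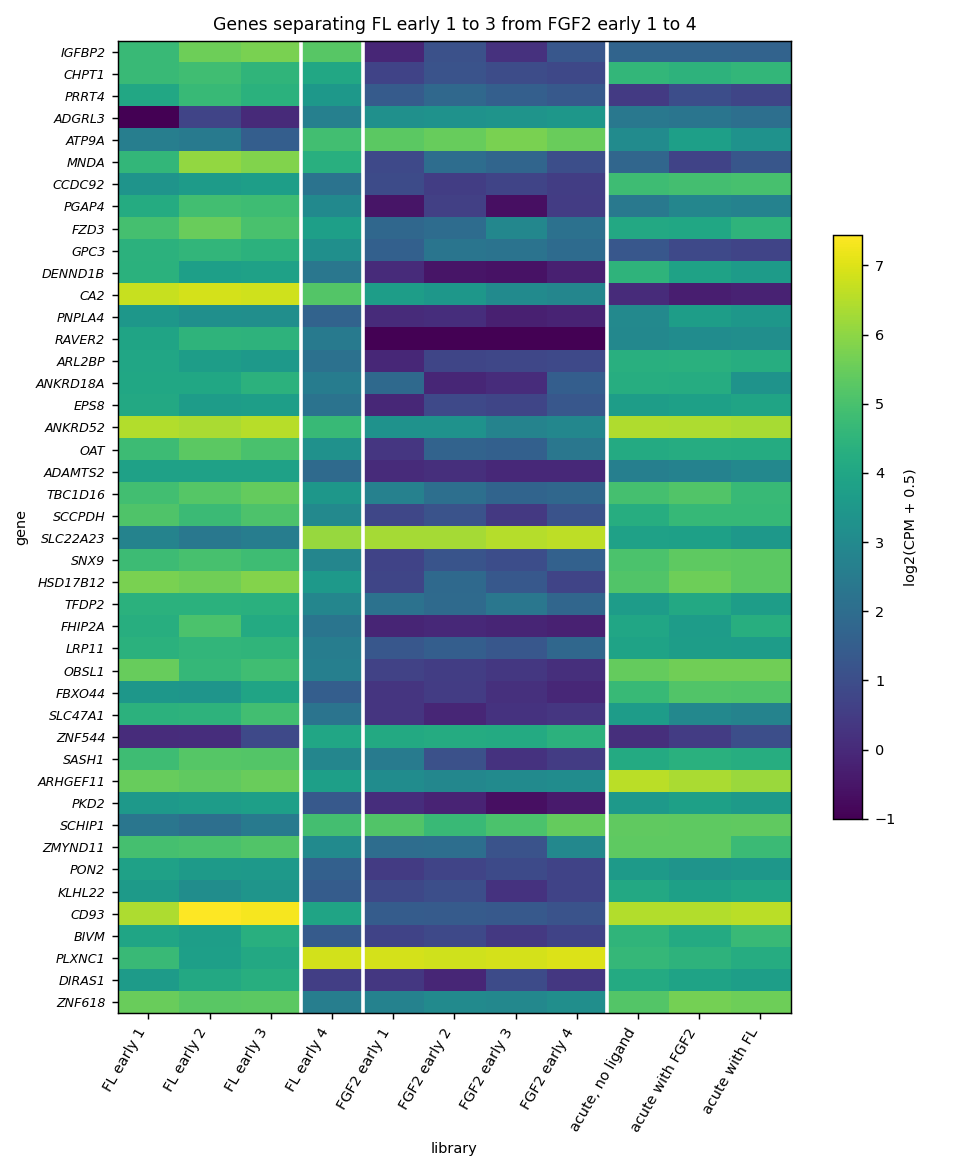
Levels of the 44 genes that separate FL early replicates 1 to 3 from the 4 FGF2 early flasks, as log2(CPM + 0.5), with libraries as columns and genes as rows. The replicate 4 column resembles the FGF2 early columns in most rows, and the median gene lies 80.4% of the way.

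The comparison with acute libraries asks what differs between cells that grow in gilteritinib and cells newly exposed to it. Genes of DNA replication, mitosis, ribosome assembly and amino acid supply were higher in FL early flasks, with granule genes of myeloid cells. Genes of the lysosome, p53 targets, MHC class II and most HOXA genes were lower. Of 15756 genes tested with edgeR, 4809 were higher and 4681 lower in FL early flasks at an adjusted p under 0.05, which is 30.5% and 29.7% of those tested. Of these, 1940 were at least 2-fold higher and 2179 at least 2-fold lower. The shares of all genes, 30.5% and 29.7%, are the background for the list counts against acute libraries below. All 4 FL early libraries lay above all 3 acute libraries for 4409 genes (28.0%) and below them for 4531 (28.8%). Without replicate 4, 4761 were higher and 4592 lower. In the ligand-matched comparison, against the single acute library with FL, 4012 were higher (25.5%) and 3426 lower (21.7%), or 4116 and 3547 without replicate 4. That library has no replicate and was assumed to vary like the other groups. Both comparisons share the FL early flasks and the acute library with FL.

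**Figure D2:**
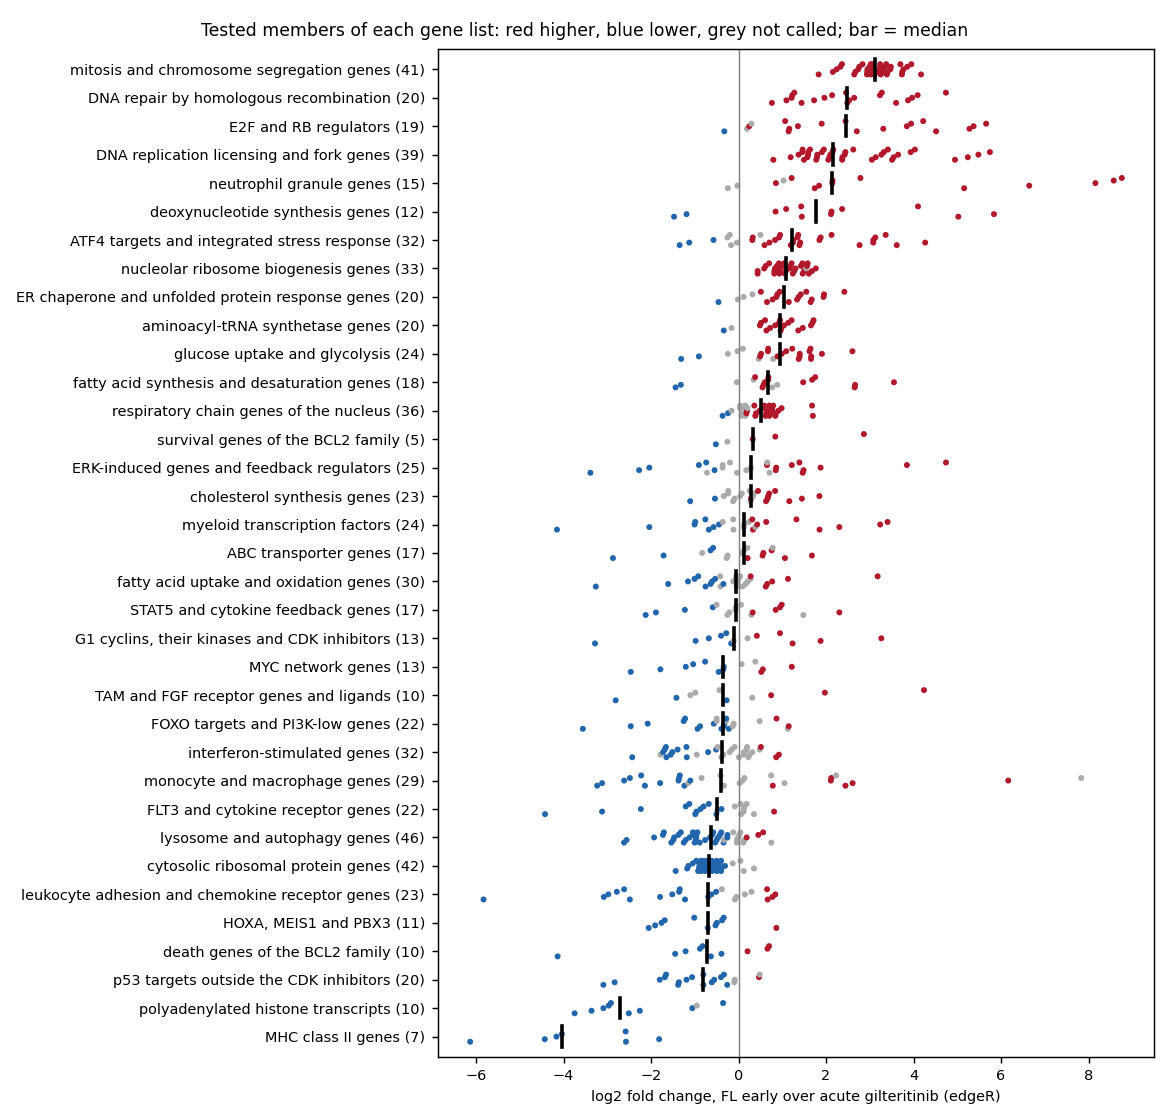
Log2 fold change, FL early over acute, of each tested member of the gene lists, with the number of tested members in brackets, in red for called higher, blue for called lower and grey for not called. Bars are list medians, which run from 3.11 for mitosis genes to −4.04 for MHC class II genes. The last is the value of a gene under 1 CPM in FL early flasks.

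The DNA replication genes separated the groups without exception. All 39 tested genes of licensing and the fork were higher, with a median log2 fold change of 2.16 against −0.02 for all genes, and a ligand-matched median of 2.34. CDC6 (ENSG00000094804), which loads the MCM helicase onto origins, read 63.0, 60.4, 70.7 and 75.6 CPM in FL early replicates 1 to 4, against 2.20, 1.68 and 1.42 CPM in the acute libraries without ligand, with FGF2 and with FL. Every FL early flask was far above every acute library. The log2 fold change was 5.24 ± 0.13 (standard error, adjusted p = 2.7e-12), and 5.56 ± 0.19 in the ligand-matched comparison. MCM10 and CDC45, which switch the loaded helicase on, rose by 5.74 ± 0.21 (adjusted p = 4.3e-11) and 5.48 ± 0.19 (adjusted p = 3.1e-11). MCM4, a helicase subunit, stood at 552 to 636 CPM in FL early flasks and 34.8 to 39.7 CPM in acute libraries (adjusted p = 1.6e-12). FEN1, which trims Okazaki fragments, stood at 116 to 141 CPM in FL early flasks and 13.1 to 14.1 CPM in acute libraries. RFC3, a subunit of the loader of the sliding clamp, rose by 2.37 ± 0.07 (adjusted p = 7.1e-12).

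Enzymes of deoxynucleotide synthesis were higher in 10 of 12 cases and lower in 2, RRM2B, a p53-induced reductase subunit, and SAMHD1, which degrades deoxynucleotides. RRM2 (ENSG00000171848), the S phase subunit of ribonucleotide reductase, read 124, 117, 133 and 142 CPM in FL early flasks, against 2.07, 3.61 and 1.0 CPM in the acute libraries without ligand, with FGF2 and with FL. The groups were far apart, and the acute library with FL was the lowest of all. RRM2 rose by 5.84 ± 0.26 (adjusted p = 3.0e-10) against the acute group and by 7.0 ± 0.23 (adjusted p = 5.9e-09) against the acute library with FL. TK1, the salvage thymidine kinase, rose by 5.02 ± 0.18 and TYMS, which makes thymidylate, by 4.10 ± 0.13. All 20 genes of homologous recombination were higher (median 2.47), among them EXO1, a nuclease that resects DNA ends, by 4.74 ± 0.15 and BRCA1, a repair scaffold, by 2.48 ± 0.08.

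All 41 mitosis genes were higher, with a median of 3.11 and a ligand-matched median of 3.27. CCNA2 (ENSG00000145386), the cyclin of S phase and mitotic entry, read 75.2, 88.0, 86.7 and 91.7 CPM in FL early flasks, against 5.21, 5.15 and 3.81 CPM in the acute libraries without ligand, with FGF2 and with FL. Neither group's spread approached the difference of 4.17 ± 0.13 (adjusted p = 9.1e-12). CDK1, the kinase of mitotic entry, rose by 3.95 ± 0.12, KIF11, a spindle motor, by 3.48 ± 0.10, KIF2C, a microtubule depolymerase, by 3.03 ± 0.09, TPX2, the activator of Aurora A, by 2.93 ± 0.08, and AURKB, a kinase of chromosome segregation, by 3.25 ± 0.12. MKI67, the gene of the Ki-67 proliferation antigen, was at 470.0 to 693 CPM in FL early flasks and 54.5 to 85.1 CPM in acute libraries.

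E2F factors, which turn on S phase genes, and their partners were higher in 16 of 19 cases. MYBL2, which activates mitotic genes, stood at 183 to 214 CPM in FL early flasks and 2.50 to 5.64 CPM in acute libraries (5.66 ± 0.19, adjusted p = 1.8e-11). E2F1 rose by 3.94 ± 0.14 and FOXM1, its mitotic counterpart, by 3.31 ± 0.12. The single member that fell was RBL2, the pocket protein p130 of resting cells. Among 13 genes of G1 control, the 5 that rose were D cyclins and kinases (CCND1, CCND2, CCND3, CDK2, CDK4). The 6 that fell were CDK inhibitors (CDKN1A, CDKN1B, CDKN1C, CDKN2C, CDKN2D) and CCNG1, a p53-induced cyclin. The shares that rose and fell, 38.5% and 46.2%, compare with 30.5% and 29.7% of all genes. CDK2 rose by 1.87 ± 0.09 and CDK4 by 1.23 ± 0.14. CCND2 rose by 0.95 ± 0.16. CCND3 rose by 0.42 ± 0.14, a call lost without FL early replicate 3 (0.32) or without the acute library lacking ligand (0.26). CDKN1B fell by 0.28 on the log2 scale, a call lost without FL early replicate 1 (−0.24), FL early replicate 4 (−0.23) or the acute library with FL (−0.23). CDKN1A, the p21 inhibitor, read 150.2, 326, 345 and 361 CPM in FL early flasks, against 529, 589.6 and 637 CPM in the acute libraries without ligand, with FGF2 and with FL. Replicate 1 was the lowest, all 4 flasks were below the acute libraries, and the change was −0.98 ± 0.21 (adjusted p = 0.0010).

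Histone transcripts that reach poly(A)-selected libraries were lower in 9 of 10 cases, with a median of −2.72. H1-2, a linker histone, was at 2.02 to 3.53 CPM in FL early flasks and 22.4 to 30.4 CPM in acute libraries (−3.36 ± 0.24, adjusted p = 3.4e-08). H2BC5, a core histone, fell by 3.09 on the log2 scale. Histone genes of 1 cluster are near-identical, so values of single copies are uncertain.

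Promoters of 4 of these genes are shown because they hold letters that E2F or the mitotic regulators are known to bind. Windows are the 250 bases before the RefSeq start of each gene on GRCh38.p14, written 5′ to 3′ along the gene, and capitals mark the motif. For E2F the words TTTCCCGC, TTTGGCGC and TTTCGCGC were searched on both strands. Of 27305 genes with a window 777 (2.85%) hold one, as do 14 of the 37 matched replication genes (37.8%) and 6 of the 15 matched E2F regulators (40.0%). For the CHR element of mitotic genes the word TTTGAA was searched on both strands. It lies before 4383 genes (16.1%) and before 22 of the 36 matched mitosis genes (61.1%). A match is a description of letters and not a measured binding site. In RFC3 and KIF11 the word lies on the opposite strand, so the capitals show its reverse complement.
RFC3 (chr13:33817899-33818148, plus strand): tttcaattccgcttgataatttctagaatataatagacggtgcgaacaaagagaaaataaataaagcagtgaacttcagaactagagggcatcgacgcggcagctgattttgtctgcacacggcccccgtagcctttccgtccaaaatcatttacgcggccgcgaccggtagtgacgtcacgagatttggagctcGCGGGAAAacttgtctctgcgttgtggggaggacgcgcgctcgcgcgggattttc
E2F1 (chr20:33686386-33686635, minus strand): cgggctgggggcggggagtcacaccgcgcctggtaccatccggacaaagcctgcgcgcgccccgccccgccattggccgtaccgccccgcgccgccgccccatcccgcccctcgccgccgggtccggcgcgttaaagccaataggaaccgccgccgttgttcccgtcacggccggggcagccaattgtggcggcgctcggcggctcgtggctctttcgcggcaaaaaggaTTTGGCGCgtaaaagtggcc
KIF11 (chr10:92592880-92593129, plus strand): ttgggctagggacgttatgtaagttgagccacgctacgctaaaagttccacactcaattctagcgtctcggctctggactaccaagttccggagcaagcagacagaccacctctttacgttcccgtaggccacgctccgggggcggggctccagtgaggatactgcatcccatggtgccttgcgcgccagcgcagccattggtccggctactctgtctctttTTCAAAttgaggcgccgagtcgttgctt
CCNB2 (chr15:59104896-59105145, plus strand): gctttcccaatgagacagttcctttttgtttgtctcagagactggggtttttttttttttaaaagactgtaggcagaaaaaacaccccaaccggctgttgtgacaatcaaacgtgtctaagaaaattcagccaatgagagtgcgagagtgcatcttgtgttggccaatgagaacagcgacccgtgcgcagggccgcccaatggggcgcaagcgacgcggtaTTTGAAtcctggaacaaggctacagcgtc

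The E2F word ends 47 bases before the start of RFC3 and 12 bases before that of E2F1. The CHR word ends 22 bases before the start of KIF11 and 23 bases before that of CCNB2. CCNB2, a mitotic cyclin, was at 57.4 to 70.8 CPM in FL early flasks and 7.81 to 10.9 CPM in acute libraries.

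**Figure D3:**
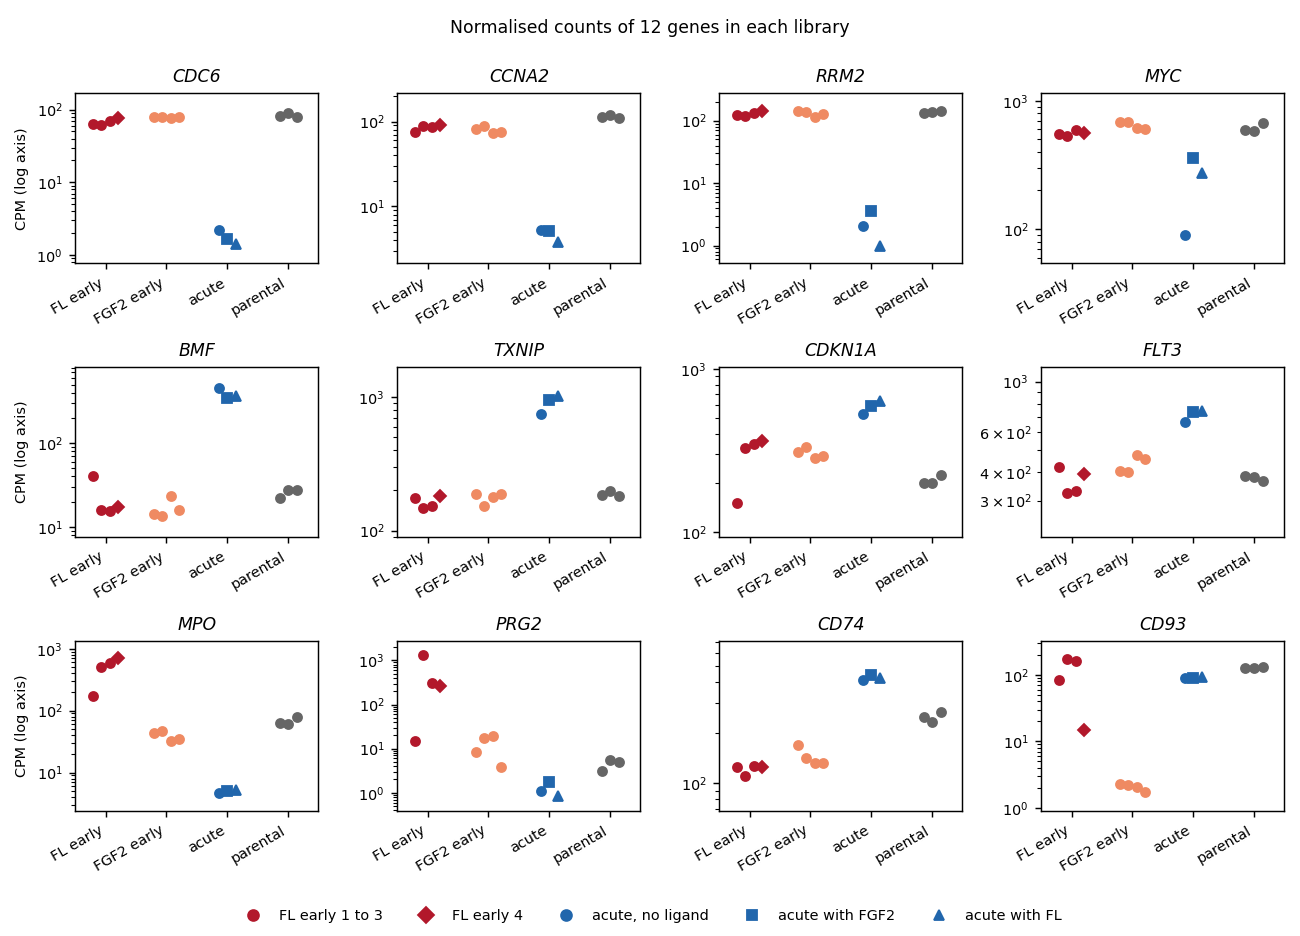
CPM on a log axis of 12 genes in each library, for FL early flasks (replicate 4 as a diamond), FGF2 early flasks, acute libraries (circle without ligand, square with FGF2, triangle with FL) and parental libraries. CDC6, CCNA2 and RRM2 are low in the acute libraries, and MPO is highest in FL early flasks. PRG2 is highest in FL early replicates 2, 3 and 4, while replicate 1 overlaps the FGF2 early flasks. CD93 in replicate 4 lies between the other FL early flasks and the FGF2 early flasks.

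Ribosome assembly genes were higher in FL early flasks while ribosomal protein transcripts were lower. Of 33 nucleolar genes, 32 were higher and none lower, with a median of 1.08. That median was 1.60 against the acute library without ligand, 0.78 against the one with FGF2 and 1.07 against the one with FL. UTP20 and HEATR1, which process the precursor of 18S rRNA, rose by 1.68 ± 0.12 and 1.27 ± 0.09, and DDX21, a nucleolar helicase, by 1.76 ± 0.15. Of 42 cytosolic ribosomal protein genes, 38 were lower and none higher (median −0.68), or 2 higher without the acute library with FGF2. RPS27 was at 1537 to 1940.3 CPM in FL early flasks and 4291 to 4655 CPM in acute libraries, and RPLP2 fell by 0.90 on the log2 scale. Ribosomal protein genes have many processed pseudogenes, and reads can be split between them.

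MYC (ENSG00000136997), a transcription factor of growth and ribosome assembly, read 550.1, 533, 587 and 562 CPM in FL early flasks, against 89.9, 357 and 275 CPM in the acute libraries without ligand, with FGF2 and with FL. Both ligand-treated acute cultures were nearer to the FL early flasks than the one without, and all were below every flask. MYC rose by 1.22 ± 0.30 (adjusted p = 0.0033) against the acute group and by 1.02 ± 0.11 (adjusted p = 2.0e-05) against the acute library with FL. In the wider MYC network 3 of 13 genes were higher (23.1%) and 8 lower (61.5%), against 30.5% and 29.7% of all genes. TXNIP, a brake on glucose uptake, fell to 148 to 181 CPM in FL early flasks, against 747 to 1019 CPM in acute libraries (−2.47 ± 0.11, adjusted p = 3.4e-10). ARRDC4, its relative, fell by 1.79 on the log2 scale.

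Of 32 ATF4 targets and stress response genes, many of which supply amino acids, 24 were higher and 3 lower (CEBPB, NUPR1, PPP1R15A, all regulators), with a median of 1.22. The 3 became 1 without FL early replicate 2 or 3 and 5 without replicate 4. PHGDH, the first enzyme of serine synthesis, read 195, 204, 239.9 and 236 CPM in FL early flasks, against 18.9, 29.9 and 26.6 CPM in the acute libraries without ligand, with FGF2 and with FL. All flasks were at least 6 times above all acute libraries, a change of 3.12 ± 0.14 (adjusted p = 2.3e-10). PSAT1, the next enzyme, rose by 3.08 ± 0.13, CBS, which starts transsulfuration, by 4.26 ± 0.19, and SLC7A5, a transporter of large neutral amino acids, by 2.12 ± 0.11. Aminoacyl-tRNA synthetases were higher in 18 of 20 cases (median 0.95), GARS1, the glycyl-tRNA synthetase, by 1.69 ± 0.10.

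Glycolysis genes were higher in 17 of 24 cases (70.8%) and lower in 2 (8.33%), against 30.5% and 29.7% of all genes. LDHA, which makes lactate, read 609, 1042, 1015 and 918 CPM in FL early flasks, against 128, 172 and 143 CPM in the acute libraries without ligand, with FGF2 and with FL. Replicate 1 was the lowest flask and was still above every acute library. LDHA rose by 2.60 ± 0.16 (adjusted p = 1.0e-08), and SLC16A1, a lactate transporter, by 1.64 ± 0.12. Nuclear genes of the respiratory chain were higher in 24 of 36 cases (median 0.51), CYCS, the gene of cytochrome c, by 1.70 ± 0.11. Fatty acid synthesis genes were higher in 12 of 18 cases and cholesterol synthesis genes in 10 of 23, with 2 lower in each list. The higher shares, 66.7% and 43.5%, compare with 30.5% of all genes. Without FL early replicate 4, 4 cholesterol synthesis genes were lower. SCD, which desaturates fatty acids, stood at 327 to 1012 CPM in FL early flasks, lowest in replicate 1, and at 103 to 149 CPM in acute libraries. It rose by 2.65 ± 0.29 and FASN, the fatty acid synthase, by 1.75 ± 0.21. Fatty acid uptake and oxidation genes were divided, with 6 of 30 higher (20.0%) and 10 lower (33.3%), against 30.5% and 29.7% of all genes. FABP5, a fatty acid carrier, rose by 3.18 ± 0.20, and CD36, a fatty acid receptor also found on monocytes, fell by 3.27 on the log2 scale.

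Of 46 lysosome and autophagy genes, 33 were lower and 3 higher, with a median of −0.63. SQSTM1, a cargo receptor of autophagy, was at 146 to 164 CPM in FL early flasks and 383 to 476 CPM in acute libraries (−1.47 ± 0.08, adjusted p = 1.8e-09). CTSB, a lysosomal protease, fell by 1.05, and PSAP, the precursor of sphingolipid activators, by 1.38 on the log2 scale. CTSD, another protease, read 103, 108, 89.5 and 86.1 CPM in FL early flasks, against 508, 266 and 332 CPM in the acute libraries without ligand, with FGF2 and with FL. All flasks were below all acute libraries, by −1.93 ± 0.17 (adjusted p = 2.5e-07). Its promoter window is shown for the CLEAR element, the letters that TFEB and TFE3, regulators of lysosome genes, are known to bind. The words TCACGTGA, TCACGTGG and CACGTGAC were searched on both strands. Of all genes with a window 919 (3.37%) hold one, and of the 31 matched lysosome genes 8 do (25.8%). In CTSD 2 overlapping matches, in capitals, lie together and the nearer ends 39 bases before the start.
CTSD (chr11:1763928-1764177, minus strand): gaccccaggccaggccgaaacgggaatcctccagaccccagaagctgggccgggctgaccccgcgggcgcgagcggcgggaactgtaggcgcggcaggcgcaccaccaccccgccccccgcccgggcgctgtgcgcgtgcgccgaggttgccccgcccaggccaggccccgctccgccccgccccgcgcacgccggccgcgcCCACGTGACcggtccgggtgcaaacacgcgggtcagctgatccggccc

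Chaperones of the endoplasmic reticulum were higher in 16 of 20 cases and lower in 1, HERPUD1 (median 1.04). CALR, a chaperone of glycoproteins, stood at 2119.9 to 2706 CPM in FL early flasks and 389 to 519 CPM in acute libraries, and HSPA5, the BiP chaperone, rose by 1.55 ± 0.11.

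**Figure D4:**
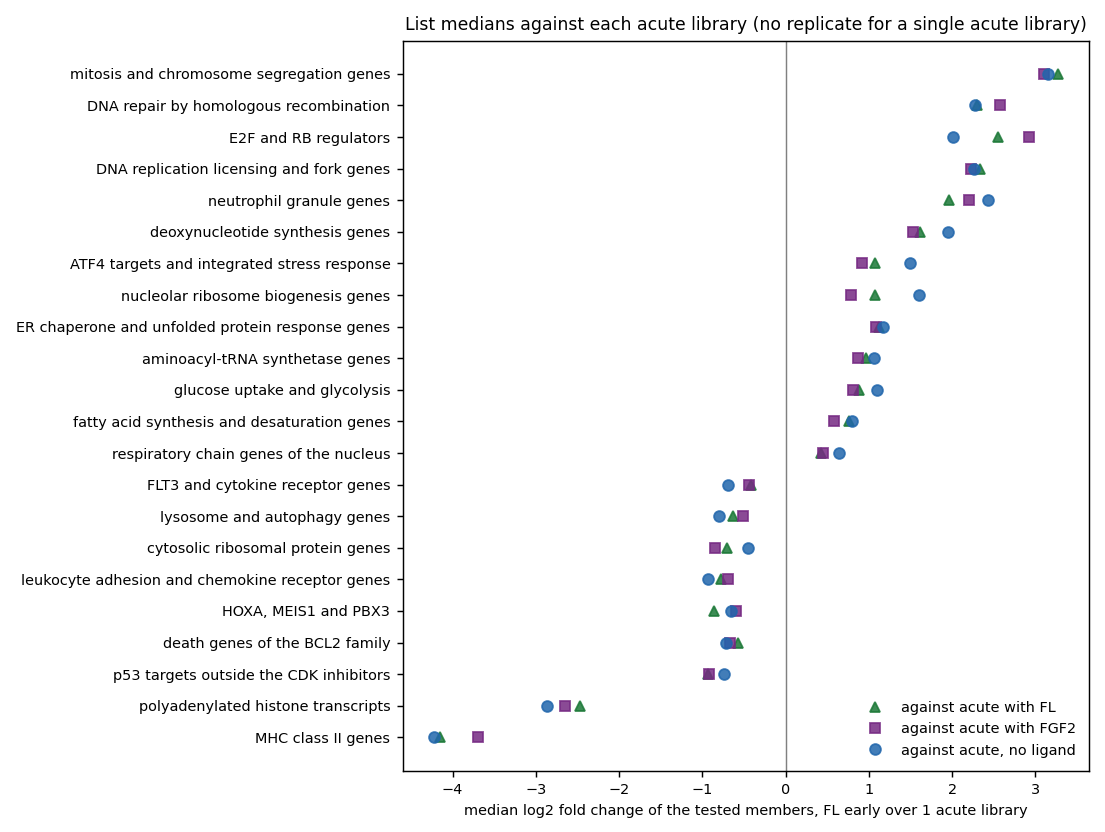
Median log2 fold change of the tested members of gene lists, FL early over each single acute library, for lists with a median of at least 0.5 in size. Nucleolar genes lie at 1.60 against the library without ligand and 0.78 against the one with FGF2.

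FLT3, the receptor itself, and many cytokine receptor genes were lower in FL early flasks. FLT3 (ENSG00000122025) read 421, 325, 330.5 and 393 CPM in FL early flasks, against 667, 738 and 742 CPM in the acute libraries without ligand, with FGF2 and with FL. It was lower in every flask, by −0.96 ± 0.09 (adjusted p = 8.7e-07), and by −1.02 ± 0.13 in the ligand-matched comparison. Of 22 cytokine receptor genes 12 were lower (54.5%) and 1 higher (EPOR, 4.55%), against 29.7% and 30.5% of all genes. The higher count was 3 without FL early replicate 1 and 2 without replicate 4 or the acute library lacking ligand. CSF1R, the receptor of macrophage colony-stimulating factor, was at 6.91 to 22.2 CPM in FL early flasks and 121 to 183 CPM in acute libraries (adjusted p = 8.1e-07). Of 10 TAM and FGF receptor genes and ligands, 3 were higher and 3 lower, near the 30.5% and 29.7% of all genes. AXL, the second target of gilteritinib, read 20.2, 8.89, 8.65 and 19.5 CPM in FL early flasks, against 17.5, 21.5 and 19.1 CPM in the acute libraries without ligand, with FGF2 and with FL. Replicates 2 and 3 were lower than replicates 1 and 4. The difference of −0.44 ± 0.25 did not pass the test (adjusted p = 0.15), but did without replicate 1 (−0.61) or without replicate 4 (−0.63). TYRO3, its relative, rose by 1.97 ± 0.35, and GAS6, the ligand of both, fell by 1.42 on the log2 scale. FGFR3, an FGF receptor, was at 14.4 to 34.6 CPM in FL early flasks and 128 to 177 CPM in acute libraries (−2.81 ± 0.29).

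Of 25 genes induced by ERK or restraining it, 10 were higher (40.0%) and 6 lower (24.0%), against 30.5% and 29.7% of all genes. SPRY4, an inhibitor of RAS signalling, read 11.1, 18.7, 17.4 and 11.6 CPM in FL early flasks, against 0.426, 1.89 and 0.731 CPM in the acute libraries without ligand, with FGF2 and with FL. The acute library with FGF2 was the highest of the 3 and still below every flask. SPRY4 rose by 3.85 ± 0.38 (adjusted p = 9.6e-07), or by 4.69 without that library. ETV4, a transcription factor downstream of ERK, showed the same order and rose by 4.74 ± 0.50, or by 6.59 without that library. DUSP2, a phosphatase of ERK, rose by 1.48 ± 0.17. DUSP6, another, read 50.2 to 109 CPM in FL early flasks and 31.0 to 83.7 CPM in acute libraries. Its difference of 0.65 ± 0.28 did not pass (adjusted p = 0.058), but did without FL early replicate 1 (0.90) or the acute library with FGF2 (1.06). The 6 that fell were EGR2, EGR3, FOS, FOSL2, DUSP4 and PHLDA1, of which EGR2, EGR3 and FOS are immediate early genes. EGR1, of the same class, read 21.3, 24.7, 17.9 and 13.4 CPM in FL early flasks, against 47.3, 14.2 and 12.9 CPM in the acute libraries without ligand, with FGF2 and with FL. Its difference of −0.36 ± 0.35 did not pass (adjusted p = 0.39). Without the acute library lacking ligand it turned to 0.51, which passed as higher (adjusted p = 0.03). NRAS, a switch upstream of ERK, rose by 0.41 ± 0.06 (adjusted p = 7.2e-05).

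Of 17 STAT5 and cytokine feedback genes, 5 were higher (MCL1, OSM, CCND2, ID1, SPRED1) and 4 lower (PIM1, SOCS1, SOCS3, STAT5A), with 3 higher without FL early replicate 2. These shares, 29.4% and 23.5%, lie near the 30.5% and 29.7% of all genes. PIM1, a kinase induced by STAT5, read 8.48, 6.49, 5.49 and 2.57 CPM in FL early flasks, against 27.4, 24.7 and 23.1 CPM in the acute libraries without ligand, with FGF2 and with FL. It was lower in every flask, by −2.13 ± 0.26 (adjusted p = 8.9e-06), and parental cells held 47.5 to 49.8 CPM. STAT5A fell by 0.59 on the log2 scale. CISH, another STAT5 target, was at 10.6 to 13.5 CPM in FL early flasks, 10.5 to 12.6 CPM in acute libraries and 41.7 to 48.1 CPM in parental libraries, and its difference of 0.05 ± 0.12 between FL early and acute did not pass (adjusted p = 0.71). SOCS2, a feedback inhibitor, differed by −0.21 ± 0.13 (adjusted p = 0.18), and by −0.36 without FL early replicate 4, which passed. FOXO targets, which rise when PI3K and AKT are off, were lower in 13 of 22 cases and higher in 2 (IRS2, CITED2). The lower share, 59.1%, compares with 29.7% of all genes, and the higher share, 9.09%, with 30.5%. PIK3IP1, an inhibitor of PI3K, was at 1.67 to 3.61 CPM in FL early flasks and 24.1 to 37.5 CPM in acute libraries (−3.56 ± 0.24, adjusted p = 1.9e-08). CITED2, a transcriptional coregulator, rose by 0.87 ± 0.11. SGK1, a kinase related to AKT, was among the 8 largest falls, at 4.56 to 8.48 CPM in FL early flasks and 56.6 to 105 CPM in acute libraries.

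Genes that promote apoptosis were lower in 7 of 10 cases and higher in 3 (BIK, BID, BAK1), or in 1 without the acute library lacking ligand. Set against all genes, the lower share was well above 29.7%, whereas 3 of 10 higher was near the 30.5%. The ligand-matched counts were 6 lower and none higher. BMF (ENSG00000104081), a BH3-only protein, read 39.9, 16.0, 15.6 and 17.4 CPM in FL early flasks, against 455, 349 and 368 CPM in the acute libraries without ligand, with FGF2 and with FL. Replicate 1 was the highest flask and was still far below every acute library. The change was −4.14 ± 0.31 (adjusted p = 6.8e-08), and −4.05 ± 0.38 in the ligand-matched comparison. BBC3, the PUMA gene, fell by 1.45, BAX, a pore former of mitochondria, by 0.88, and BCL2L11, the BIM gene, by 0.39 on the log2 scale. Of 5 survival genes 3 were higher and 1 lower (BCL2L2), or 2 lower without the acute library lacking ligand. BCL2 stood at 99.7 to 116 CPM in FL early flasks and 50.7 to 65.6 CPM in acute libraries (0.84 ± 0.10, adjusted p = 4.4e-06). MCL1 rose by 0.32 ± 0.11 (adjusted p = 0.019) with overlap between the groups, a call lost without FL early replicate 2 (0.23), FL early replicate 3 (0.28), the acute library with FGF2 (0.28) or the one with FL (0.29). BCL2A1 read 0.892, 12.5, 5.72 and 2.36 CPM in FL early flasks and 0.515 to 0.853 CPM in acute libraries. It rose by 2.86 ± 0.72 (adjusted p = 0.0033), or by 2.02 without replicate 2. Targets of p53 outside the CDK inhibitors were lower in 16 of 20 cases and higher in 1 (FAS), or in 2 without FL early replicate 1. BTG2, an antiproliferative gene, fell by 3.09 and PHLDA3, which restrains AKT, by 1.66 on the log2 scale.

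Granule genes of neutrophils and eosinophils showed large rises and a wide spread between flasks. Of 15 tested members of 20, 12 were higher and none lower, with a median of 2.14, and the ligand-matched count was 11 with a median of 1.96. Without replicate 4, 12 were higher with a median of 2.04. Their summed level was 6843 to 8882 CPM in FL early flasks, 2728 to 4035 CPM in FGF2 early flasks, 1613 to 2215 CPM in acute libraries and 1561 to 1993 CPM in parental libraries. MPO (ENSG00000005381), the myeloperoxidase gene, read 172, 513, 580.1 and 702 CPM in FL early flasks, against 4.66, 4.95 and 5.16 CPM in the acute libraries without ligand, with FGF2 and with FL. PRTN3, the gene of proteinase 3, read 1831, 1237, 944 and 1672 CPM in FL early flasks, against 34.2, 40.3 and 45.2 CPM in the same acute libraries. Replicate 1 had the lowest MPO and the highest PRTN3 of the flasks, and each flask was far above each acute library for both genes. MPO rose by 6.64 ± 0.44 (adjusted p = 2.6e-08) and PRTN3 by 5.16 ± 0.32 (adjusted p = 1.2e-08). CTSG, cathepsin G, rose by 2.78 ± 0.18 and RNASE2, a ribonuclease of eosinophil granules, by 1.74 ± 0.10. LYZ, lysozyme, rose by 1.21 ± 0.37 (adjusted p = 0.011), a call lost without the acute library with FGF2 (1.01) or the one with FL (1.09). CFD, complement factor D, read 789, 125, 118 and 556 CPM in FL early flasks and 348, 329 and 736 CPM in the acute libraries, a difference of −0.25 ± 0.56 that did not pass.

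PRG2 and EPX encode the major basic protein and the peroxidase of eosinophil granules. PRG2 (ENSG00000186652) read 14.5, 1300.3, 314 and 262 CPM in FL early flasks, against 1.11, 1.72 and 0.847 CPM in the acute libraries without ligand, with FGF2 and with FL. EPX (ENSG00000121053) read 1.49, 505, 113 and 114 CPM in FL early flasks, against 0.820, 0.790 and 0.269 CPM in the same acute libraries. In both, replicate 2 was highest and replicate 1 lowest, and replicate 1 of EPX stood near the acute libraries. PRG2 rose by 8.57 ± 1.37 (adjusted p = 9.4e-05) and EPX by 8.16 ± 1.47 (adjusted p = 2.7e-04), or by 7.31 and 6.90 without replicate 2. CA2, carbonic anhydrase II, rose by 7.82 ± 0.51 (adjusted p = 2.0e-08). It read 105, 118, 114 and 36.0 CPM in FL early flasks and 0.309 to 0.525 CPM in acute libraries, and replicate 4 was the lowest flask. Other genes followed the order of PRG2, though they were picked after their values were seen. CR1, a complement receptor, read 0.297, 213, 117 and 36.4 CPM in FL early flasks and under 1 CPM in every acute library. S100A9, a calcium-binding protein of neutrophils, read 2.01, 56.2, 18.7 and 17.9 CPM in FL early flasks and 0.172 to 0.459 CPM in acute libraries. CD209, a lectin, and FCER2, a low-affinity IgE receptor, were high in replicates 2 and 3, with CD209 at 2.57, 34.8, 27.4 and 2.02 CPM and FCER2 at 2.57, 42.5, 65.2 and 4.48 CPM in FL early flasks, against 6.39 to 7.42 CPM and 4.85 to 8.08 CPM in acute libraries.

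MHC class II genes, which present antigen to helper T cells, were lower in all 7 tested members of 11, with a median of −4.04 and a ligand-matched median of −4.15. Without replicate 4 the median was −3.76. The median of −4.04 is the value of HLA-DQA1, at 0.0315 to 0.558 CPM in FL early flasks and 2.65 to 3.80 CPM in acute libraries. HLA-DPB1 and HLA-DMB were also under 1 CPM in every FL early flask, so the size of the median is uncertain. The summed level of the tested class II genes, most of it from CD74, was 125 to 142 CPM in FL early flasks and 528 to 542 CPM in acute libraries. It was 147 to 190 CPM in FGF2 early flasks and 282 to 306 CPM in parental libraries. CIITA, their master activator, read 8.07, 9.58, 7.78 and 7.15 CPM in FL early flasks, against 51.6, 46.6 and 48.4 CPM in the acute libraries without ligand, with FGF2 and with FL. The flasks were close to each other and well below the acute libraries, by −2.58 ± 0.14 (adjusted p = 1.7e-09). CD74, the invariant chain, fell by 1.82 and HLA-DMA, a peptide loader, by 4.17 on the log2 scale, the last by 4.91 without replicate 2. HLA genes vary between people, and their reads can be assigned to another identifier. The CD74 promoter is shown for its CCAAT box, the letters bound by NF-Y in MHC class II promoters. The word CCAAT, on both strands, lies before 10102 of the 27305 genes (37%) and before 8 of the 9 matched class II genes (88.9%). In CD74 it ends 48 bases before the start.
CD74 (chr5:150412911-150413160, minus strand): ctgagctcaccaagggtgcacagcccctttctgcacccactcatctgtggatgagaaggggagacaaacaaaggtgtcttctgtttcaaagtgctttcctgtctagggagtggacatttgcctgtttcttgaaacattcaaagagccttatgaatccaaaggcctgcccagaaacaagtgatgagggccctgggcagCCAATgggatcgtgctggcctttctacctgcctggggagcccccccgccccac

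**Figure D5:**
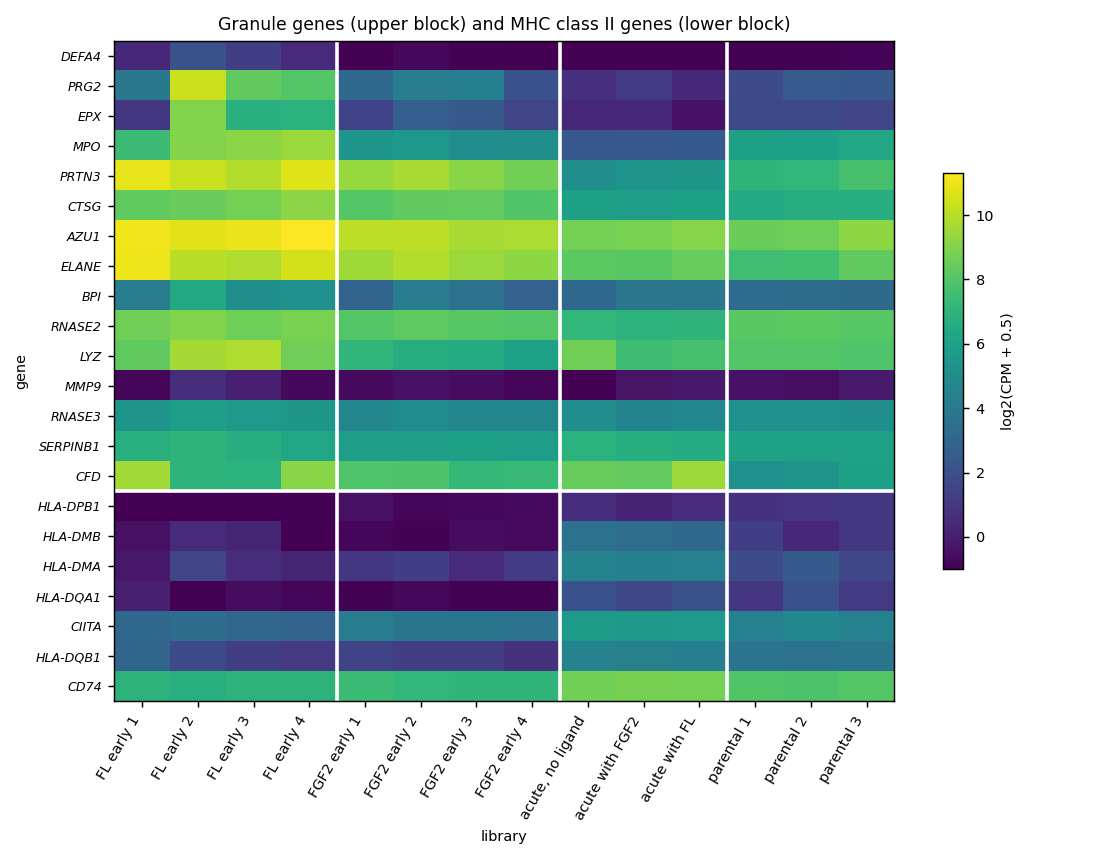
Levels of the 15 tested granule genes and the 7 tested MHC class II genes as log2(CPM + 0.5), with genes as rows and the 14 libraries as columns. PRG2 and EPX differ widely among FL early flasks, whereas CD74 and CIITA are even within each group.

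Monocyte and macrophage genes were divided, with 6 of 29 higher (FCGR1A, S100A8, S100A9, CLEC12A, TLR2, FCER1G) and 12 lower. The shares, 20.7% and 41.4%, compare with 30.5% and 29.7% of all genes. The summed level of the list was 546 to 679.8 CPM in FL early flasks and 1098 to 1195 CPM in acute libraries. CX3CR1, a chemokine receptor of monocytes, fell by 2.62, CD68, a macrophage glycoprotein, by 1.24, and MPEG1, a pore former of macrophages, by 3.41 on the log2 scale. FCGR1A, the high-affinity IgG receptor, rose by 2.44 ± 0.18. Adhesion and chemokine receptor genes were lower in 14 of 23 cases (60.9%) and higher in 4 (17.4%), against 29.7% and 30.5% of all genes. ITGAL and ITGAM, integrin chains of leukocytes, fell by 1.80 and 1.36, SELPLG, a selectin ligand, by 1.52, and CXCR4, a homing receptor, by 1.23 on the log2 scale. NRP1, a semaphorin and VEGF coreceptor, was at 2.39 to 5.11 CPM in FL early flasks, 51.8 to 56.3 CPM in acute libraries and 44.7 to 54.8 CPM in parental libraries. ALDH1A3, an enzyme of retinoic acid synthesis, was at 16.0 to 64.3 CPM in FL early flasks, 319 to 346 CPM in acute libraries and 374 to 394 CPM in parental libraries. Both were therefore low in FL early flasks and high in acute and parental libraries alike. Further large falls were DTX4, a Notch regulator, by 3.73, CNTN4, a contactin, by 3.46, and ADGRD1, an adhesion receptor, by 3.49 on the log2 scale.

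Myeloid transcription factors were called higher in 9 of 24 cases (37.5%) and lower in 8 (33.3%), near the 30.5% and 29.7% of all genes. GATA2, a stem and progenitor factor, was at 52.1 to 74.8 CPM in FL early flasks and 5.0 to 8.56 CPM in acute libraries (3.24 ± 0.26, adjusted p = 1.1e-07). MYB, a progenitor factor, rose by 1.32 ± 0.08 and ID1, an inhibitor of differentiation factors, by 2.30 ± 0.27, whereas ID2, its relative, fell by 0.99 on the log2 scale. CEBPA, the granulocyte factor, read 326, 73.2, 78.8 and 253 CPM in FL early flasks and 81.0, 104 and 281 CPM in the acute libraries without ligand, with FGF2 and with FL. FL early replicates 1 and 4 were the high flasks and the acute library with FL the high library, and its difference did not pass (adjusted p = 0.75). Of 11 genes of HOXA, MEIS1 and PBX3, which mark MOLM14 and other KMT2A-rearranged leukaemias, 10 were lower and HOXA13 was higher, by 0.86 ± 0.07. HOXA9 fell by 0.71 and HOXA10 by 0.53 on the log2 scale. Interferon-stimulated genes were lower in 12 of 32 cases and higher in 3, or in 5 without the acute library lacking ligand. The lower share, 37.5%, compares with 29.7% of all genes, and the higher share, 9.38%, with 30.5%. TRIM22, an antiviral factor, fell by 1.66 and STAT2, a transducer of interferon signals, by 1.52 on the log2 scale. Of 17 ABC transporters 6 were higher (35.3%) and 4 lower (23.5%), near the shares of all genes.

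The acute library with FL differed from the other 2 acute libraries in some genes, which are given as values with no test. CEBPD, a myeloid factor, read 18.5 to 35.7 CPM in FL early flasks, against 3.93, 6.08 and 10.7 CPM in the acute libraries without ligand, with FGF2 and with FL. Its change was 1.22 ± 0.39 against the library with FL and 1.85 ± 0.32 against all 3. CNP, a phosphodiesterase of myelin, read 4.42 to 9.25 CPM in FL early flasks and 19.5, 19.9 and 7.04 CPM in the acute libraries. It fell by 1.14 on the log2 scale against all 3, a call lost without the acute library lacking ligand (−0.94) or the one with FGF2 (−0.91), and differed by −0.00 ± 0.43 from the library with FL. TLN2, a talin, read 7.90 to 26.4 CPM in FL early flasks and 5.08, 6.36 and 13.5 CPM in the acute libraries. It rose by 1.01 ± 0.40 (adjusted p = 0.045), a call lost without FL early replicate 2 (0.69), FL early replicate 3 (0.87), the acute library lacking ligand (0.75) or the one with FGF2 (0.86), and its ligand-matched difference of 0.30 ± 0.53 did not pass. EMILIN1, a matrix glycoprotein, read 12.5 to 18.8 CPM in FL early flasks and 2.89, 8.42 and 10.9 CPM in the acute libraries, and RDH10, a retinol dehydrogenase, 9.22 to 13.3 CPM in FL early flasks and 6.95, 6.94 and 3.31 CPM in the acute libraries. RDH10 was lowest in the acute library with FL, and its change was 1.73 ± 0.23 there and 0.93 ± 0.21 against all 3.

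Set against the FGF2 early flasks, which received the same inhibitor dose and time, FL early flasks differed in fewer genes than against acute libraries. Of 15756 genes, 1507 were higher (9.56%) and 630 lower (4.0%), and without FL early replicate 4 these were 2060 and 1214. The lower genes were 303 without FL early replicate 3, 320 without FL early replicate 2, and 353, 321 and 306 without FGF2 early replicate 1, 3 or 4. Replication genes were lower in 5 of 39 cases and mitosis genes higher in 2 of 41, with medians of −0.14 and 0.01. Leaving out 1 of the 8 early libraries gave 0 to 9 lower replication genes, with 9 without FL early replicate 4, and 1 to 7 higher mitosis genes, with 7 without FL early replicate 1. Granule genes were higher in 13 of 15 cases with a median of 1.19, and without replicate 4 in 13 with a median of 1.10. MPO stood at 172 to 702 CPM in FL early flasks and 32.3 to 46.1 CPM in FGF2 early flasks (3.65 ± 0.33). PRG2 stood at 14.5 to 1300.3 CPM in FL early flasks and 3.84 to 19.4 CPM in FGF2 early flasks, which overlapped in replicate 1 alone (5.28 ± 0.96). EPX in FL early replicate 1, at 1.49 CPM, was below every FGF2 early flask, at 2.30 to 5.94 CPM. Of the ERK-induced genes 9 of 25 were lower in FL early flasks (EGR1, EGR2, EGR3, FOS, FOSB, JUNB, IER2, DUSP1, DUSP2), 7 of them immediate early transcription factors or regulators, and 1 was higher, a call lost without any 1 of the early libraries except FL early replicate 1. EGR1 read 21.3, 24.7, 17.9 and 13.4 CPM in FL early flasks, against 96.3, 92.2, 106 and 109 CPM in FGF2 early flasks. Every FL early flask was below every FGF2 early flask, by −2.38 ± 0.33 (adjusted p = 5.6e-04). FOSB, a partner of JUN, differed by −2.39 ± 0.30 and DUSP1, a phosphatase of MAP kinases, by −1.50 ± 0.15. Among protein-coding genes averaging 3 or more in log2 CPM over the 8 early libraries, with no overlap between FL early and FGF2 early flasks, those furthest higher in FL early flasks were CD93, a lectin-like receptor of myeloid cells (5.72 ± 0.61), HSD17B12, an enzyme of fatty acid elongation (4.51 ± 0.46), FADS2, a fatty acid desaturase (4.52 ± 0.79), MNDA, a myeloid nuclear antigen (4.18 ± 0.45), and CKAP4, a reticulum protein (4.16 ± 0.48). CD93 was at 88.0 to 93.0 CPM in acute libraries and 1.71 to 2.27 CPM in FGF2 early flasks, and its difference of 0.27 from acute did not pass. HSD17B12 was at 34.8 to 46.7 CPM in acute libraries and 1.17 to 3.21 CPM in FGF2 early flasks. MNDA was low in both, at 1.13 to 2.92 CPM and 1.31 to 3.55 CPM, and FADS2 rose by 3.55 against acute libraries. ATP9A, a lipid flippase, and PLEKHA5, an adaptor, differed from FGF2 early flasks by −2.13 ± 0.55 and −1.53 ± 0.31. In both, FL early replicate 4 lay far above the other FL early flasks, with ATP9A at 5.54, 4.98, 2.39 and 28.8 CPM and PLEKHA5 at 5.24, 5.49, 3.86 and 15.2 CPM.

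Untreated parental cells lay nearer to FL early flasks than to acute libraries for most genes. Of the 1940 genes at least 2-fold higher in FL early flasks, parental cells were nearer to FL early on the log2(CPM + 0.5) scale for 1642 (84.6%), and of the 2179 at least 2-fold lower, for 1930 (88.6%). RRM2 was at 117 to 142 CPM in FL early flasks and 131 to 143 CPM in parental libraries, and BMF at 15.6 to 39.9 CPM in FL early flasks and 22.3 to 27.4 CPM in parental libraries. PIM1, NRP1 and ALDH1A3, whose parental levels are given above, were among the exceptions.

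Single FL early flasks stood far from the other 3 in few genes. The count below cannot show splits of 2 flasks against 2, as for CFD at 789, 125, 118 and 556 CPM in replicates 1 to 4. Among 9445 genes of at least 8 CPM in some flask, replicate 1 stood 4-fold or more above the other 3 flasks for 5 genes and below them for 16, replicate 2 for 5 and 0, replicate 3 for 1 and 1, and replicate 4 for 8 and 17.

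Markers of other cell types stayed low or were carried by single genes. Erythroid markers summed to 0.366 to 0.669 CPM in FL early flasks and 0.557 to 0.962 CPM in acute libraries, with 2 of 13 tested and neither called, or 1 higher without the acute library with FGF2. Megakaryocyte markers summed to 0.595 to 1.39 CPM in FL early flasks and 0.459 to 1.19 CPM in acute libraries, and 1 of the 2 tested, GP9, a platelet glycoprotein, was higher, a call lost without FL early replicate 2, 3 or 4. T and NK cell markers summed to 49.4 to 67.4 CPM in FL early flasks and 50.4 to 57.1 CPM in acute libraries, nearly all from NKG7, a granule protein, and NCAM1, an adhesion molecule that rose by 0.99 ± 0.14. B cell markers summed to 56.1 to 76.6 CPM in FL early flasks and 41.2 to 45.5 CPM in acute libraries, nearly all from PAX5, a B cell factor that rose by 0.71 ± 0.10. Stromal and epithelial markers summed to 18.3 to 30.3 CPM in FL early flasks and 7.83 to 9.66 CPM in acute libraries, nearly all from KRT18, a keratin that rose by 1.68 ± 0.18. Their part in the results was not tested.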

How the data were processed

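RNA was sequenced from MOLM14 cultures as stranded poly(A) libraries (TruSeq stranded mRNA, NovaSeq), per the labels' protocols. The authors deposited estimated counts per Ensembl gene from kallisto, with GRCh37 named in the submitters' processing notes. The kallisto version is not given in the sources used here. Only 0.0540% of values above 0 were whole within 1e-06, and the deposited estimated counts were rounded for testing. Of 39293 identifiers, 33353 (84.9%) matched a gene name.

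Genes were kept with edgeR's filterByExpr (minimum count 10, minimum total 15), which left 15756, and libraries were scaled by TMM. The 14 libraries were fitted as 4 groups with edgeR 4.0.16 (robust quasi-likelihood test, 10 residual degrees of freedom, R 4.3.3), and p-values were adjusted by Benjamini-Hochberg over all genes. In the ligand-matched fit the acute libraries were 3 groups of 1, with 8 residual degrees of freedom. A gene was called at an adjusted p under 0.05. Log2 fold changes are FL early over the group named, with standard errors. CPM carry the TMM scaling. Alternatives used limma 3.58.1 and DESeq2 1.42.0. The scripts were tested on simulated data. Figures used Python 3.11.15 and matplotlib 3.10.9. Libraries differ little in depth. Counting error depends on the count of each gene and is largest below about 1 CPM.

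The members and gene lists were chosen with earlier results of these data known. Named genes were a panel of 30, the 8 largest changes in each direction against acute libraries (protein-coding, mean log2 CPM of at least 3, no overlap between groups), up to 4 members of each list with the smallest adjusted p, and 5 in each direction for the acute library with FL and for FGF2 early. Some genes that this rule takes are not reported here. Near-identical copies were passed over, as were Y-linked genes after their values were seen. CR1, S100A9, CD209, FCER2, CFD, CEBPA, CCNB2, CTSD, SLC22A23, PLXNC1, ZNF618 and DIRAS1 were named outside this rule, after their values were seen. Promoter windows are RefSeq sequence of GRCh38.p14 and share no coordinates with the count table.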

Additional observations from a re-analysis of the deposited data

Results flagged for a closer look

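Of the 149 named genes, 10 had 1 FL early flask far from the other 3. Independent values with a normal spread give such a gap in about 1 in 20 groups of 4. The named genes are not independent and many were picked for large changes, so the count cannot be judged against that rate. SLC22A23 and PLXNC1 were picked to show replicate 4 after their values were seen, and the rate does not apply to them. In replicate 4 the outlying genes were ATP9A at 28.8 CPM, PLXNC1 at 114 CPM, SLC22A23 at 70.4 CPM and PLEKHA5 at 15.2 CPM, all above the other flasks, and CA2 at 36.0 CPM, below them. In replicate 1 BMF at 39.9 CPM, GAS6 at 159 CPM and RPS27 at 1940.3 CPM lay above the other flasks and CDKN1A at 150.2 CPM below them. In replicate 2 CD74 was the lowest, at 109.7 CPM, with the other flasks at 125.4 to 125.9 CPM.

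The change against the same acute libraries differed between FL early and FGF2 early flasks for 45 of the 149 named genes in edgeR's test of the difference (adjusted p under 0.05), and 20 of these differed at least 4-fold. Over all 15756 genes 9.56% were higher and 4.0% lower, but the 149 include genes named for the size of this difference, so their share is not comparable. The comparison shares the acute libraries, so the difference equals FL early minus FGF2 early. On the log2 scale it was −2.39 ± 0.30 for FOSB, −2.38 ± 0.33 for EGR1 and −2.13 ± 0.55 for ATP9A, which were lower in FL early flasks. It was 6.31 ± 1.27 for CR1, 5.72 ± 0.61 for CD93, 5.57 ± 1.06 for EPX, 5.28 ± 0.96 for PRG2, 4.52 ± 0.79 for FADS2, 4.51 ± 0.46 for HSD17B12, 4.18 ± 0.45 for MNDA and 4.16 ± 0.48 for CKAP4. It was 3.82 ± 0.64 for DIRAS1, 3.65 ± 0.33 for MPO, 3.32 ± 0.32 for CA2, 2.92 ± 0.76 for CD209, 2.61 ± 0.35 for LYZ, 2.48 ± 0.76 for FCER2, 2.34 ± 0.30 for FGFR3, 2.22 ± 0.62 for BCL2A1 and 2.12 ± 0.43 for ZNF618. EPX was not higher in every FL early flask, as replicate 1, at 1.49 CPM, lay below the FGF2 early flasks, at 2.30 to 5.94 CPM. Of the genes above, ATP9A, CA2, CD93, DIRAS1, HSD17B12, MNDA and ZNF618 were among the 44 that placed FL early replicate 4. For these it lay nearer to FGF2 early than to the mean of the other FL early flasks on the CPM scale. The other genes were not placed in this way, and some of them may share this position.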

How the results depend on the processing

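The counts against acute libraries kept within 1.5 times the main counts under RLE size factors, upper quartile scaling, scaling without ribosomal protein and mitochondrial genes, no low-count filter, DESeq2 and limma-voom. Upper quartile scaling moved the median of all genes by −0.13, and 42.7% of calls were then higher, against 50.7%, with 44.5% against 53.9% in the ligand-matched comparison. It also turned the medians of myeloid transcription factors and ABC transporters to −0.00 and −0.01. Tested against a 2-fold change, 1144 genes were higher and 1016 lower, and in the ligand-matched comparison 837 and 632. With the libraries compared alone in the fit, the ligand-matched count of lower genes was 2175. Leaving out 1 library gave 4576 to 5066 higher and 4293 to 4592 lower against acute libraries, 3867 to 4448 and 3216 to 3547 ligand-matched, and 1042 to 2060 and 303 to 1214 against FGF2 early flasks. Against FGF2 early, DESeq2 gave 995 lower, and leaving out FL early replicates 1 and 4 gave 1299 lower. Leaving out 1 library, ATP9A ran from −1.24 without FL early replicate 4 to 0.37 without replicate 3 (ligand-matched −1.12 to 0.49). Against all acute libraries it was 0.04 in the main fit, and −1.24 passed as lower (adjusted p = 0.0011). Without replicates 1 and 4 ATP9A was −1.40 (ligand-matched −1.29). EGR1 ran from −0.67 without acute replicate 3 to 0.51 without acute replicate 1, where it passed as higher (adjusted p = 0.03). The causes were not tested. Replicate numbers did not pair FL early with FGF2 early libraries (correlations of 0.066, 0.015, −0.033 and 0.017 for the same number), and a fit of the FL early and FGF2 early libraries alone gave 569 higher and 179 lower with the replicate number as a block, against 1011 and 453 without it. Leaving out FL early replicates 2 and 3, and fitting FL early and FGF2 early alone, were added after the data were seen. Genes below about 1 CPM are limited by depth.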
